A study of Mus musculus with 10 samples.

Results

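The genes described here encode proteins that carry out mitosis: the kinases and cyclins of mitotic entry, the spindle checkpoint, the kinetochore and centromere, spindle motors, condensin, the anaphase machinery and the proteins of cytokinesis. They were taken as 56 gene symbols by their known roles, by a rule that uses no measured value but with earlier results of these data known, and all 56 were found among the 43346 genes of the count table. The data come from poly-A RNA sequencing of O9-1, a line of mouse cells from the neural crest of the head, with 10 libraries in 3 groups. The groups are 4 biologically independent wildtype samples (WT/1 to WT/4), 3 Kat5 ko clones (Kat5/1 to Kat5/3) and 3 Ep400 ko clones (Ep400/1 to Ep400/3). *Kat5* encodes the acetyltransferase and *Ep400* an ATPase of the Tip60/Ep400 chromatin remodeling complex. All cells were grown on Matrigel in preconditioned medium, and the clones were grown from individually sorted cells after transfection with Cas9, a guide and an EGFP plasmid. Each clone is therefore 1 line with 1 library, whereas the wildtype cells were not cloned. According to the methods of the study, all alleles of the target gene carried insertions or deletions in the Kat5 ko clones. Frameshifts were found in every allele of Ep400/1 and in most alleles of Ep400/3, whereas most alleles of Ep400/2 had in-frame deletions.

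Transcripts of most of these genes are periodic and accumulate in the G2 phase and in mitosis, when the transcription factors B-Myb and FoxM1 are recruited by the MuvB complex to a short promoter element named CHR, often next to CCAAT boxes that bind NF-Y. In resting cells the same element is bound by the repressive DREAM complex. In an asynchronous culture, the level of such a transcript in bulk RNA therefore depends on the share of cells in G2 and mitosis as well as on the amount of RNA per cell. The RNA data alone do not tell fewer such cells from less RNA in each of them. In separate assays, the study reports lower percentages of mitotic cells and slower growth in clones of both knockouts than in wildtype cells. How the RNA levels given here relate to those assays was not tested. From the same RNA libraries, the study also reports enriched gene sets of cell cycle, DNA replication and mitosis for the Kat5 ko clones. Its text states no direction for these sets.

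Between 30968945 and 48301792 reads per library were counted on genes, and the 56 genes had between 371 and 30715 counts in each library, so that none was near the detection limit and all passed the filter on low counts in every comparison. *Kat5* lay at 30.5% to 43.1% of the wildtype mean in the Kat5 ko clones and *Ep400* at 34.3% to 38.5% in the Ep400 ko clones. Markers of the neural crest and of O9-1 cells were expressed in all libraries, except that *Eng* was at 0.586 to 2.52 CPM, and the summed level of these 12 genes was 2262 to 2599 CPM in wildtype cells, 2430 to 2853 in Kat5 ko clones and 2986 to 4253 in Ep400 ko clones. The markers did not move together. Between Ep400 ko clones and wildtype cells, 7 of the 12 had log2-fold changes above 0 and 5 below 0. *Prrx1* alone ranged from 881.8 to 2158 CPM in the Ep400 ko clones. *Sox10*, which defines glial and early crest cells, and the pluripotency genes *Pou5f1* and *Zfp42* had 0 counts in all 10 libraries. The 4 smooth muscle markers summed to 5.84 to 16.6 CPM in wildtype cells, 0.461 to 685 in Kat5 ko clones, where Kat5/1 was the highest, and 2.34 to 58.9 in Ep400 ko clones. Their part in the results below was not tested. The genes of whole chromosomes were shifted, by medians of −0.355 (chromosome 17 in Kat5/3) to 0.305 (chromosome 18 in Kat5/1) on the log2 scale in the clones and of −0.301 to 0.139, both in WT/3, in wildtype libraries. Some shifts were shared by all clones of a knockout. In Ep400/1, Ep400/2 and Ep400/3 the medians were 0.291, 0.271 and 0.239 for chromosome 19 and −0.167, −0.191 and −0.204 for chromosome 11. A shared shift enters the log2-fold changes of the genes on that chromosome.

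Levels are given as CPM (counts divided by the library total, which was scaled by TMM over all 10 libraries), and differences of single libraries as log2 CPM minus the mean log2 CPM of the wildtype libraries. Per kilobase of exon, a scale on which genes can be compared, the mean level in wildtype cells ranged from 2.40 CPM per kb for *Cenpk*, a subunit of the constitutive centromere network, to 80.5 for *Cdc20*, the activator of the anaphase-promoting complex. After *Cdc20* came the ubiquitin-conjugating enzyme *Ube2c* at 68.3, topoisomerase *Top2a* at 62.0, cyclin *Ccna2* at 60.2 and the condensin subunit *Smc4* at 58.8 CPM per kb. Besides *Cenpk*, the kinesins *Kif18a* (2.63), *Kif14* (3.72) and *Kif15* (4.56 CPM per kb) were the lowest. Counting programs that do not use strand could mix 12 of the genes with an overlapping gene on the opposite strand. The other gene had 150% of the count of *Cenpk* (*Ppwd1*), 55.6% of that of *Kif4* (*Pdzd11*), 45.9% of *Cdc20* (*Elovl1*), 42.6% of *Kif20a* (*Cdc23*) and at most 26.0% (*Kif18a*, with *Mettl15*) in the other 8.

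Promoter sequences were compared because the CHR element and CCAAT boxes are shared by many genes of mitosis. Windows of 300 bases, from 250 bases before to 50 bases after the start of transcription, were listed by RefSeq for 47 of the 56 genes (build GRCm38.p6). Exact matches were sought on both strands for the CHR core (TTTGAA), the CCAAT box (CCAAT) and E2F-like sites (TTTCCCGC or TTTGGCGC), which do not contain each other. The CHR core was present in 32 of 47 genes (68.1%), against 20.2% of all 27025 listed genes and 14% of 9844 listed genes that were expressed in these cells. A CCAAT box was present in 35 (74.5%), against 41.1% and 43.1%, both elements in 27 (57.4%), against 7.97% and 5.77%, and an E2F-like site in 5 (10.6%), against 1.8% and 3.45%. These are matches of letters, not shown binding sites. The 130 bases before the start are given below for the genes with adjusted p of at most 0.05 in a comparison with Ep400 ko clones, and for *Anln*, which had the highest log2-fold change between Ep400 ko clones and wildtype cells. Capitals mark CHR, CCAAT and E2F-like matches. The RefSeq window of *Kif14* begins inside the gene model of GENCODE and is not shown.
Bub1b (chr2:118598081-118598210, plus strand): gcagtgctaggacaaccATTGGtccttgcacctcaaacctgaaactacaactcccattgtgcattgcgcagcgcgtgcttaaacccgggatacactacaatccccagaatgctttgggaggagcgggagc
Espl1 (chr15:102296163-102296292, plus strand): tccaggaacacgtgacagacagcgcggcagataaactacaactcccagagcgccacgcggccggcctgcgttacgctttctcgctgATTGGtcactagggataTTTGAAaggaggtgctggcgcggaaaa
Ncapg (chr5:45669795-45669924, plus strand): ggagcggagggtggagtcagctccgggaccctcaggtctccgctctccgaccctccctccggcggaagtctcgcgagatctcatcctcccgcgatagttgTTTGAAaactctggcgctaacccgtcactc
Top2a (chr11:99024190-99024319, minus strand): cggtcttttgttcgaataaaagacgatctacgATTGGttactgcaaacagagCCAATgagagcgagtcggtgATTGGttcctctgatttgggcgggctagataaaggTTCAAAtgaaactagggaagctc
Cenpe (chr3:135212433-135212562, plus strand): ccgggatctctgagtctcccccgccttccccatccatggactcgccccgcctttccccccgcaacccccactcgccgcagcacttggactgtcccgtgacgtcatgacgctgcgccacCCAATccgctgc
Kif18a (chr2:109280608-109280737, plus strand): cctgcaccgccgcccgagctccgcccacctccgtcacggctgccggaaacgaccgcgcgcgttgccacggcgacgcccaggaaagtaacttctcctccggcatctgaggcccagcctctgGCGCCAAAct
Kif23 (chr9:61946800-61946929, minus strand): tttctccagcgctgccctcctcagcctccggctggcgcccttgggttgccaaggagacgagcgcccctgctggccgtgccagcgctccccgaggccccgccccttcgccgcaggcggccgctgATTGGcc
Anln (chr9:22389207-22389336, minus strand): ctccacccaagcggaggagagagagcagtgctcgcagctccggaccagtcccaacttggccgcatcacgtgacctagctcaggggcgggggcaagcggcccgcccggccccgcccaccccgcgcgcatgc

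*Espl1*, *Ncapg* and *Top2a* carried a CHR core 27, 30 and 23 bases before the start. Within the 130 bases shown, *Espl1* had a CCAAT box 44 bases before the start, and *Top2a* had 3 CCAAT boxes at 98, 78 and 58 bases. In its whole window, *Top2a* had 6 CCAAT boxes and another CHR core 179 bases before the start. *Ncapg* also had a CCAAT box 176 bases before the start and an E2F-like site behind it, at base 32. The CHR cores of *Bub1b*, *Kif23* and *Anln* lay behind the start, at base 41, at base 3 and at bases 22 and 29, and *Cenpe* and *Kif18a* had none in the window. Median log2-fold changes of genes with and without a CHR core were 0.23 (32 genes) and 0.17 (15 genes) between Kat5 ko clones and wildtype cells, and −0.41 and −0.36 between Ep400 ko clones and wildtype cells. With and without both a CHR core and a CCAAT box they were 0.23 (27 genes) and 0.19 (20 genes) for Kat5, −0.46 and −0.24 for Ep400 and −0.75 and −0.50 for Ep400 against Kat5. With and without a CCAAT box they were 0.225 (35 genes) and 0.194 (12 genes) for Kat5, −0.39 and −0.40 for Ep400 and −0.68 and −0.63 for Ep400 against Kat5. With and without an E2F-like site they were −0.57 (5 genes) and −0.38 (42 genes) for Ep400. These are descriptions of the list, and no difference between them was tested.

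Read clone by clone, the mitotic genes separated the knockouts and also separated the Ep400 ko clones from each other. The mean log2 difference from wildtype over the 56 genes was 0.13 in Kat5/1, 0.27 in Kat5/2 and 0.28 in Kat5/3, against −0.05 to 0.08 in the wildtype libraries. It was −0.04 in Ep400/1, −0.32 in Ep400/2 and −0.88 in Ep400/3, so that Ep400/1 lay within the wildtype range and the other Ep400 ko clones below it. The median level was 110.1%, 125.5% and 120.4% of the wildtype mean in Kat5/1, Kat5/2 and Kat5/3, and 100.2%, 80% and 52.6% in Ep400/1, Ep400/2 and Ep400/3, while the median over all 14079 expressed genes stayed between 97.4% and 101% in these clones. The 56 genes held 0.711% to 0.764% of all counts in wildtype libraries, 0.814% to 0.862% in Kat5 ko clones and 0.748%, 0.597% and 0.452% in Ep400/1, Ep400/2 and Ep400/3.

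**Figure D1:**
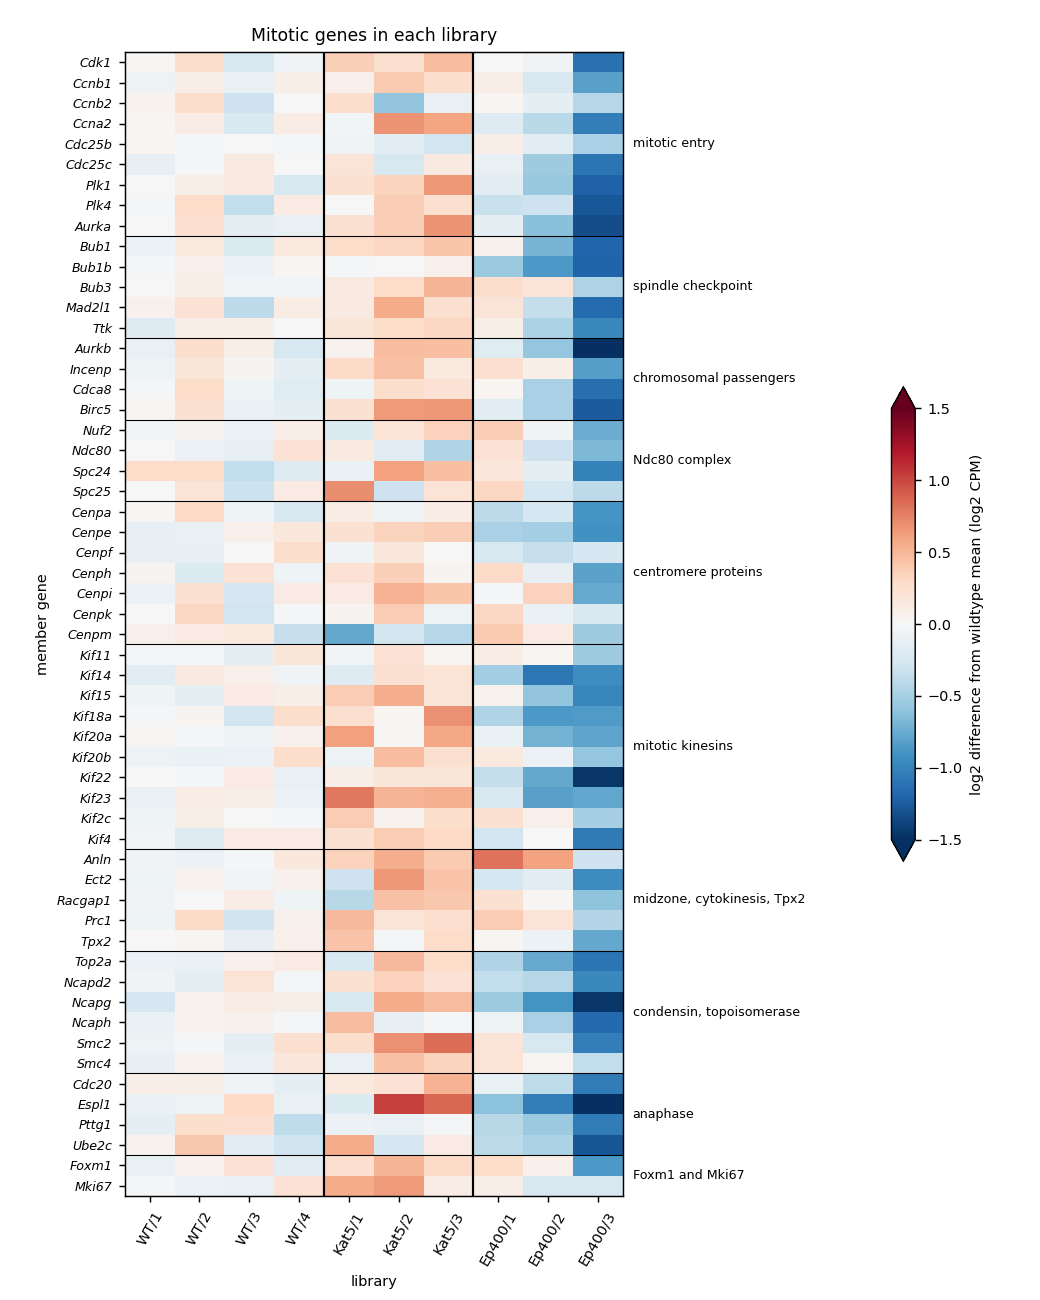
Colours give log2 CPM minus the mean of the 4 wildtype libraries (red higher, blue lower, ends of the scale at 1.5 and −1.5) for the 56 mitotic genes in rows, sorted by role, and the 10 libraries in columns. The column of Ep400/3 is blue in all 56 rows, Ep400/2 in 44, and the Kat5 ko columns are mostly red.

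Every one of the 56 genes was lower in Ep400/3 than the wildtype mean, and 55 lay below the lowest of the 4 wildtype libraries. The exception was *Cenpk*, at 10.6 CPM against a wildtype minimum of 10.3. Among all expressed genes, 34.3% lay below and 37.4% above the wildtype range in this clone, and 0 of the 56 genes lay above it. In Ep400/2, 33 genes lay below and 3 above the range (background 31.7% and 33.2%), and in Ep400/1, 18 below and 14 above (29.5% and 31.9%). In Kat5/1, 26 genes lay above and 8 below (27.8% and 27.7%), in Kat5/2, 37 above and 5 below (33.6% and 34.1%), and in Kat5/3, 36 above and 3 below (33.2% and 31.9%). The counts of Ep400/1 in both directions were near the shares over all genes, those of the other clones were not. In 46 of the 56 genes (82.1%), the level was lowest in Ep400/3, intermediate in Ep400/2 and highest in Ep400/1, an order found in 20.7% of all expressed genes. Ep400/3 also had the highest share of mitochondrial counts, 3.24% against 1.201% to 2.43% in wildtype libraries, and the highest TMM factor, 1.091 against 1.006 to 1.015. Whether these have a part in the lower levels was not tested. With library sizes alone in place of TMM, the mean log2 difference of Ep400/3 was −0.77.

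**Figure D2:**
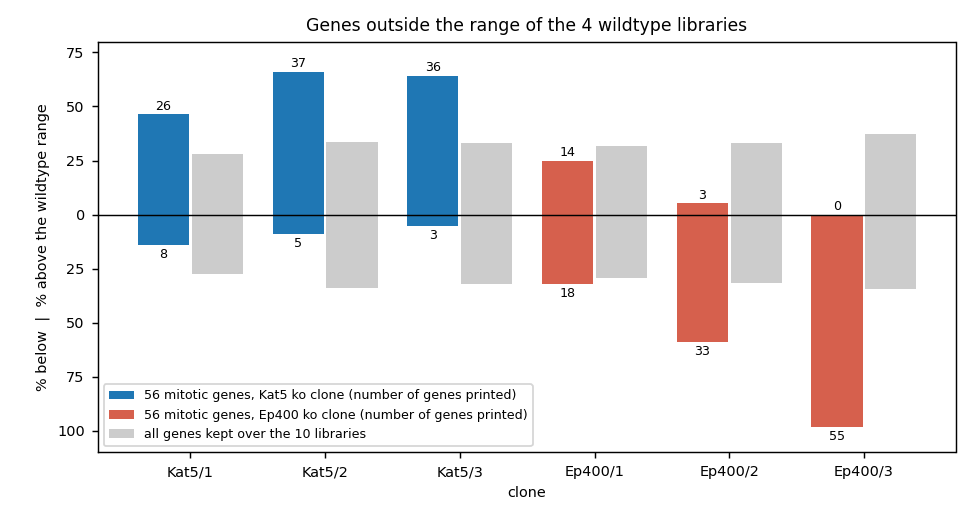
Bars give, for each clone, the percentage of genes above (upward) or below (downward) the range of the 4 wildtype libraries, coloured for the 56 mitotic genes (number of genes printed) and grey for all 14079 expressed genes. In Ep400/3, 55 genes lie below the range, and in the Kat5 ko clones 26 to 37 lie above it.

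The lowest and highest genes of each clone differed. In Ep400/3, levels ran from 31.8% of the wildtype mean for *Espl1* to 84.6% for *Cenpk*, in Ep400/2 from 46.9% for *Kif14* to 151% for *Anln*, and in Ep400/1 from 64.7% for *Espl1* to 175% for *Anln*. In the Kat5 ko clones they ran from 57.9% (*Cenpm*) to 172% (*Kif23*) in Kat5/1, from 65.7% (*Ccnb2*) to 203% (*Espl1*) in Kat5/2 and from 72.8% (*Ndc80*) to 180.3% (*Espl1*) in Kat5/3.

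Between the Ep400 ko clones and wildtype cells, 7 of the 56 genes passed an adjusted p threshold of 0.05 (quasi-likelihood test of edgeR, adjusted by Benjamini-Hochberg over 13836 genes), and all 7 were lower in the clones. They were *Bub1b*, *Kif14*, *Espl1*, *Ncapg*, *Top2a*, *Cenpe* and *Kif18a*. Over all genes tested, 5.72% were called lower and 8% higher, whereas 0 of the 56 were called higher. With DESeq2, 11 were called lower and 0 higher, and with limma-voom 8 and 0. The shares of all genes called by these tools are not given here, so these counts have no background. In the edgeR fit, 21 of the 56 had an unadjusted p under 0.05, all of them lower. Over all genes, 14.2% had one on the lower and 18% on the higher side. The log2-fold change was below 0 for 52 of the 56 genes, with a median of −0.39 against 0.04 over all genes. In 17 genes every clone lay below every wildtype library, as in 14.1% of all genes, and in 0 every clone lay above, as in 16.1%. Leaving out Ep400/3, whose levels were the lowest, the median was −0.20 and the calls were 6 lower and 1 higher (*Anln*), where 5.55% of all genes were called lower and 6.72% higher. Leaving out Ep400/1, the median was −0.58 and 16 genes were called lower, where 6.13% of all genes were. *Bub1b* was called under each of the 7 ways to leave out 1 library, and was the only member called without WT/2, WT/4 or Ep400/2, where 2.83%, 2.58% and 3.86% of all genes were called lower.

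**Figure D3:**
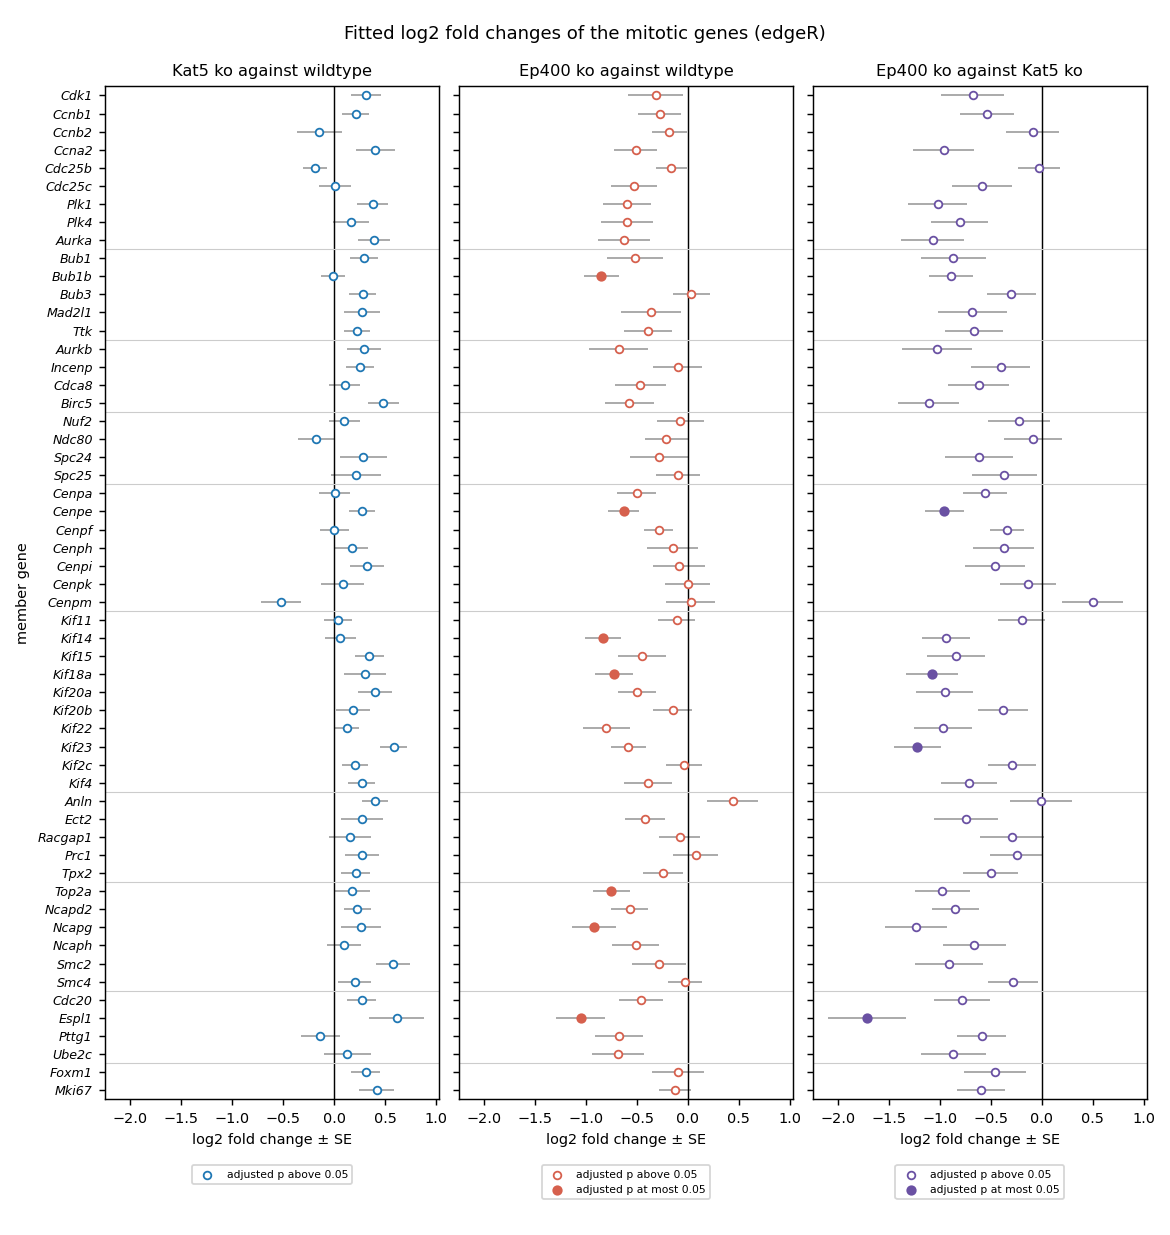
Points give the fitted log2-fold change of each of the 56 mitotic genes with its standard error in the 3 comparisons, filled where the adjusted p (edgeR, over all genes tested) was at most 0.05. Filled points number 0, 7 and 4 in the 3 panels, all below 0.

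*Bub1b* encodes BubR1, a component of the mitotic checkpoint complex that delays anaphase until all kinetochores are attached. Its levels were 169.6, 183, 162 and 177 CPM in WT/1 to WT/4, 169.9, 173 and 183 in the Kat5 ko clones and 118, 95.2 and 75.2 in Ep400/1, Ep400/2 and Ep400/3. The Kat5 ko clones were inside the wildtype range and all Ep400 ko clones below it, at 68.1%, 55.0% and 43.5% of the wildtype mean. The log2-fold change against wildtype was −0.85 (standard error 0.17, edgeR adjusted p = 0.0157) for Ep400 and −0.01 (standard error 0.12, edgeR adjusted p = 0.965) for Kat5. The other checkpoint genes, *Bub1*, *Mad2l1* and the kinase *Ttk*, had log2-fold changes of −0.52 to −0.36 for Ep400 without passing the test, and *Bub3*, which also serves outside the checkpoint, was at 0.03.

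*Espl1* encodes separase, the protease that cuts cohesin at the onset of anaphase, and had both the lowest log2-fold change of the list for Ep400 and the highest for Kat5. Its levels were 87.9, 89.2, 116 and 87.05 CPM in wildtype libraries, 82.0, 193 and 171 in Kat5/1, Kat5/2 and Kat5/3 and 61.4, 45.9 and 30.2 in Ep400/1, Ep400/2 and Ep400/3. The Ep400 ko clones all lay below wildtype, by a log2-fold change of −1.05 (standard error 0.24, edgeR adjusted p = 0.0244). The Kat5 ko clones were divided, with Kat5/1 just below all wildtype libraries and the others far above them, and the log2-fold change of 0.61 (standard error 0.27) had an edgeR adjusted p of 0.224. Without Kat5/1 it was 0.91 with an edgeR adjusted p of 0.00977, where 9.83% of all genes were called higher. Kat5/1 was the clone that went the other way, so this value adds no support to the fit of all clones. *Espl1* lies on chromosome 15 (102296266 to 102324357, GRCm38), where the median over genes was −0.35 in Kat5/1, 0.22 in Kat5/3 and about −0.10 in the Ep400 ko clones.

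Of the other anaphase genes, *Cdc20*, *Pttg1* (securin, the inhibitor of separase) and *Ube2c* had log2-fold changes of −0.69 to −0.46 for Ep400, none with an adjusted p of at most 0.05. The mean log2 difference over the 4 anaphase genes was −0.38, −0.61 and −1.26 in Ep400/1, Ep400/2 and Ep400/3, and of the 10 roles this had the lowest mean in each of these clones.

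Among condensin and topoisomerase genes, which compact and untangle chromosomes, *Ncapg* and *Top2a* fell. *Ncapg*, a subunit of condensin I, had 94.1, 116, 121 and 119 CPM in wildtype libraries, 95.7, 164 and 155 in Kat5 ko clones and 77.4, 59.9 and 40.8 in Ep400 ko clones, and the log2-fold change was −0.92 (standard error 0.22, edgeR adjusted p = 0.027) for Ep400. *Top2a* had 523, 518, 586 and 607 CPM in wildtype libraries, 475, 780.1 and 677 in Kat5 ko clones and 406, 329 and 260.2 in Ep400 ko clones, and the log2-fold change was −0.75 (standard error 0.18, edgeR adjusted p = 0.0294). In both genes all Ep400 ko clones were below all wildtype libraries, and Kat5/1 was lower than Kat5/2 and Kat5/3 by a wide margin. The genes of chromosome 11, where *Top2a* lies, had medians of −0.20 to −0.17 in the Ep400 ko clones. With the chromosome medians as offsets, the log2-fold change of *Top2a* was −0.57 and its edgeR adjusted p was 0.0649. Of the other 4 genes of this group, *Ncapd2*, *Ncaph*, *Smc2* and *Smc4* ran from −0.57 to −0.03, with all Ep400 ko clones below wildtype in *Ncapd2*.

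The motor proteins of the spindle gave 2 of the 7 calls, where 5.72% of all genes were called lower. *Kif14*, a kinesin of the midbody, had 34.3, 42.0, 40.6 and 37.0 CPM in wildtype libraries, 33.6, 45.1 and 44.2 in Kat5 ko clones and 26.8, 18.1 and 20.1 in Ep400 ko clones. *Kif18a*, which dampens chromosome movements at the plus ends of microtubules, had 24.97, 26.4, 21.1 and 30.7 CPM in wildtype libraries, 30.4, 26.0 and 41.2 in Kat5 ko clones and 18.7, 14.0 and 14.2 in Ep400 ko clones. The Ep400 ko clones were the 3 lowest libraries in both genes, and Ep400/2 was as low as Ep400/3 or lower. The log2-fold changes for Ep400 were −0.83 (standard error 0.18, edgeR adjusted p = 0.0193) for *Kif14* and −0.72 (standard error 0.19, edgeR adjusted p = 0.039) for *Kif18a*. All 10 kinesins were below 0, and in 5 (*Kif14*, *Kif18a*, *Kif20a*, *Kif22* and *Kif23*) all Ep400 ko clones lay below wildtype, as in 14.1% of all genes. *Kif22*, a chromosome-bound kinesin, and *Kif23* had edgeR adjusted p values of 0.0561 and 0.0566, just above the threshold. *Kif11*, the kinesin-5 motor that separates the spindle poles, had 143, 145, 133 and 166 CPM in wildtype libraries, 142, 170.5 and 149 in Kat5 ko clones and 158, 149.5 and 101 in Ep400 ko clones. Only Ep400/3 was outside the range of the other libraries on the lower side, and the log2-fold change of −0.11 (standard error 0.18, edgeR adjusted p = 0.708) was 0.06 without this clone. The genes of chromosome 19, where *Kif11* lies, had medians of 0.291, 0.271 and 0.239 in Ep400/1, Ep400/2 and Ep400/3.

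The centromere and kinetochore genes were less uniform. *Cenpe*, a kinesin-like motor at kinetochores, had 139, 139.7, 160.2 and 169 CPM in wildtype libraries, 177, 190.3 and 195 in Kat5 ko clones and 108, 106 and 80.8 in Ep400 ko clones. Its 3 groups did not overlap, with Kat5 ko clones above and Ep400 ko clones below wildtype cells, and the log2-fold change was −0.63 (standard error 0.16, edgeR adjusted p = 0.0312) for Ep400 and 0.27 (standard error 0.13, edgeR adjusted p = 0.251) for Kat5. *Cenpa*, the histone H3 variant that marks centromeres, had 114, 138, 107 and 94.9 CPM in wildtype libraries, 121, 106 and 121 in Kat5 ko clones and 85.4, 93.7 and 60.7 in Ep400 ko clones. Its Ep400 ko clones were below all wildtype libraries too, but the log2-fold change of −0.50 (standard error 0.19) had an edgeR adjusted p of 0.111. *Cenpf*, a large kinetochore protein, was at −0.29, again with all Ep400 ko clones below wildtype. *Cenpk*, *Cenpm*, *Cenpi* and *Cenph*, subunits of the constitutive centromere network, had log2-fold changes of −0.15 to 0.03.

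*Ndc80*, the microtubule-binding subunit of the outer kinetochore complex named after it, had 50.9, 48, 47.0 and 59.2 CPM in wildtype libraries, 56, 45.4 and 37.4 in Kat5 ko clones and 59.5, 41.3 and 32.1 in Ep400 ko clones. The groups overlapped, and the log2-fold changes of −0.21 (standard error 0.21, edgeR adjusted p = 0.523) for Ep400 and −0.18 (standard error 0.18, edgeR adjusted p = 0.585) for Kat5 were close to their errors. The genes of its chromosome 17 had a median of −0.36 in Kat5/3 and −0.28 in Ep400/2. Over the 4 subunits of the complex, the mean log2 difference was 0.26 in Ep400/1, −0.19 in Ep400/2 and −0.70 in Ep400/3.

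Genes of mitotic entry and the chromosomal passenger complex, which corrects faulty attachments, showed the order of the Ep400 ko clones without a call. *Cdk1*, the kinase that drives mitosis, had 216, 257, 182 and 206 CPM in wildtype libraries, 273, 252 and 293 in Kat5 ko clones and 214, 206 and 98.2 in Ep400/1, Ep400/2 and Ep400/3. Its partner *Ccnb1*, cyclin B1, had 159, 181, 156 and 179.8 CPM in wildtype libraries, 178, 221 and 202 in Kat5 ko clones and 181, 142 and 95.7 in Ep400 ko clones. For *Cdk1*, 1 Ep400 ko clone was outside the wildtype range and the others inside it, and the log2-fold change was −0.32 (standard error 0.27, edgeR adjusted p = 0.44). For *Ccnb1*, Ep400/2 and Ep400/3 were below the wildtype range and Ep400/1 inside it, and the log2-fold change was −0.28 (standard error 0.21, edgeR adjusted p = 0.384).

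The mitotic kinases spread further. *Plk1*, the polo-like kinase needed for spindle assembly, had 107, 113, 117 and 90.0 CPM in wildtype libraries, 124, 134 and 167 in Kat5 ko clones and 95.1, 71.6 and 45.7 in Ep400 ko clones. *Aurka*, the aurora kinase of spindle poles, had 81.2, 95.8, 73.0 and 74.99 CPM in wildtype libraries, 94.3, 104 and 129 in Kat5 ko clones and 73.4, 52.4 and 32.2 in Ep400 ko clones. *Aurkb*, the kinase of the passenger complex, had 74.7, 96.3, 85.3 and 68.4 CPM in wildtype libraries, 83.3, 111 and 110.4 in Kat5 ko clones and 70.9, 53.8 and 27.3 in Ep400 ko clones. In all 3 kinases Ep400/2 and Ep400/3 were below wildtype and Ep400/1 was inside its range. Log2-fold changes for Ep400 were −0.60 for *Plk1* (standard error 0.24, edgeR adjusted p = 0.121), −0.62 for *Aurka* (standard error 0.26, edgeR adjusted p = 0.134) and −0.68 for *Aurkb* (standard error 0.29, edgeR adjusted p = 0.15). Without Ep400/1, *Plk1* and *Aurka* had edgeR adjusted p values of 0.0376 and 0.0359, where 6.13% of all genes were called lower. Ep400/1 was the clone nearest to wildtype, so these values add no support to the fit of all clones. Of the 9 genes of mitotic entry, all 9 had a log2-fold change below 0 for Ep400, 5 with an unadjusted p under 0.05 and 0 called, and all 4 passenger genes were below 0 with 0 called. On the lower side, 14.2% of all genes had such an unadjusted p and 5.72% were called.

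**Figure D4:**
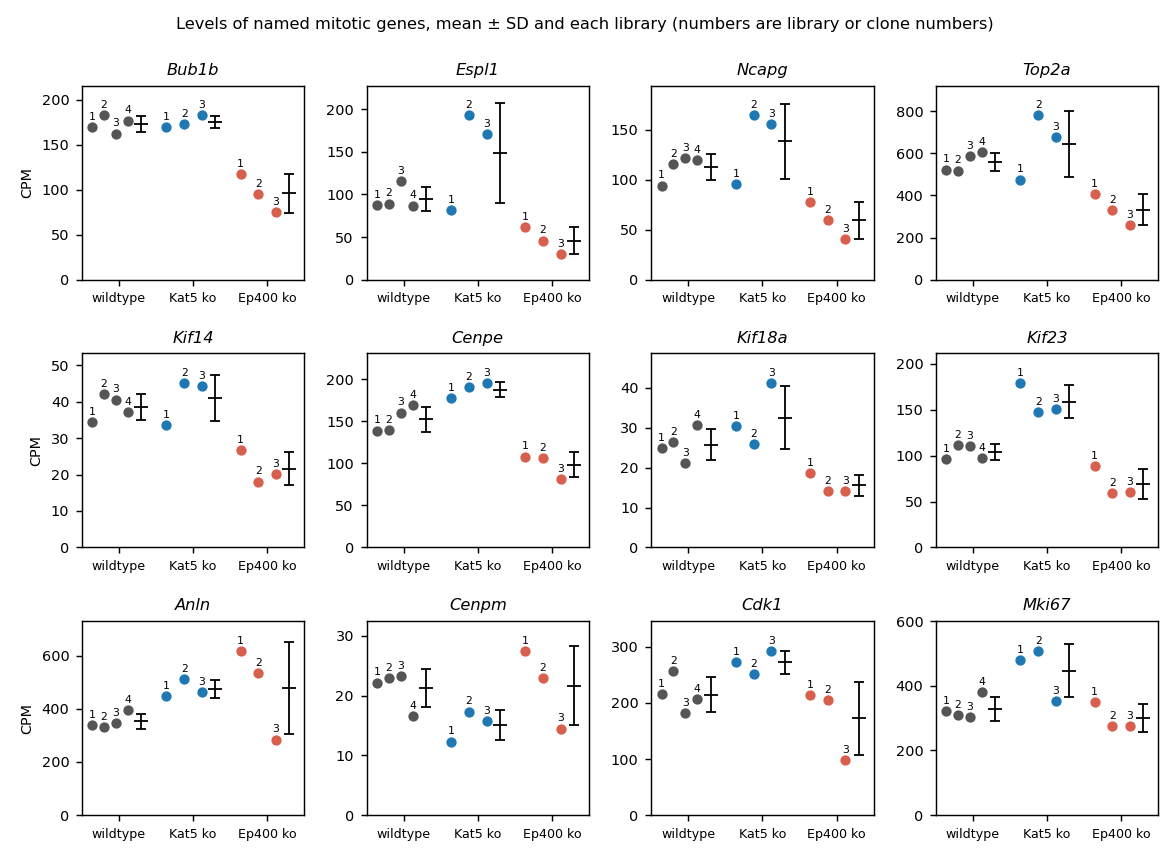
Each panel gives the CPM of 1 gene in every library (points, numbered by library or clone) with mean and SD beside them for wildtype cells (n = 4), Kat5 ko clones (n = 3) and Ep400 ko clones (n = 3), on axes from 0. *Bub1b*, *Espl1*, *Ncapg*, *Top2a*, *Kif14*, *Cenpe*, *Kif18a* and *Kif23* have all Ep400 ko clones below wildtype, whereas *Anln* has Ep400/1 and Ep400/2 above it.

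The last group holds genes of the spindle midzone and cytokinesis, and *Tpx2*. *Anln* encodes anillin, the scaffold of the contractile ring, and had 339, 331, 347 and 394 CPM in wildtype libraries, 449, 512 and 464 in Kat5 ko clones and 618, 533 and 284 in Ep400/1, Ep400/2 and Ep400/3. Ep400/1 and Ep400/2 were the 2 highest of all 10 libraries and Ep400/3 the lowest, and the log2-fold change for Ep400 was 0.44 (standard error 0.25, edgeR adjusted p = 0.252). Without Ep400/3 it was 0.70 with an edgeR adjusted p of 0.0191, where 6.72% of all genes were called higher. Ep400/3 was the clone that went the other way, so this value adds no support to the fit of all clones. The genes of chromosome 9, where *Anln* lies, had medians of 0.183, 0.078 and 0.182 in Ep400/1, Ep400/2 and Ep400/3. *Prc1*, which bundles microtubules of the central spindle, had 182, 231, 155 and 199 CPM in wildtype libraries, 266, 216 and 227 in Kat5 ko clones and 248, 219 and 140.2 in Ep400 ko clones, and the log2-fold change was 0.08 (standard error 0.22, edgeR adjusted p = 0.838). Over the 5 genes of this group, the mean log2 difference was 0.24 in Ep400/1, 0.11 in Ep400/2 and −0.61 in Ep400/3. *Ect2* and *Racgap1*, regulators of the small GTPase RhoA, were at −0.42 and −0.08, and *Tpx2*, which activates Aurora A, at −0.24.

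*Foxm1*, the transcription factor of the G2 program, had 169, 189.6, 212 and 164 CPM in wildtype libraries, 215, 259 and 223 in Kat5 ko clones and 221, 193 and 100.4 in Ep400 ko clones. *Mki67*, the proliferation marker that coats mitotic chromosomes, had 322, 309, 302 and 381 CPM in wildtype libraries, 480.2, 509 and 353 in Kat5 ko clones and 349, 276 and 276 in Ep400 ko clones. For Ep400, neither differed from wildtype by more than its error, at log2-fold changes of −0.10 (standard error 0.26, edgeR adjusted p = 0.819) for *Foxm1* and −0.13 (standard error 0.16, edgeR adjusted p = 0.603) for *Mki67*. *Foxm1* turned to 0.17 without Ep400/3. For Kat5, both were above 0, at 0.31 (standard error 0.14, edgeR adjusted p = 0.241) and 0.42 (standard error 0.17, edgeR adjusted p = 0.194), and all Kat5 ko clones were above wildtype in *Foxm1*.

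**Figure D5:**
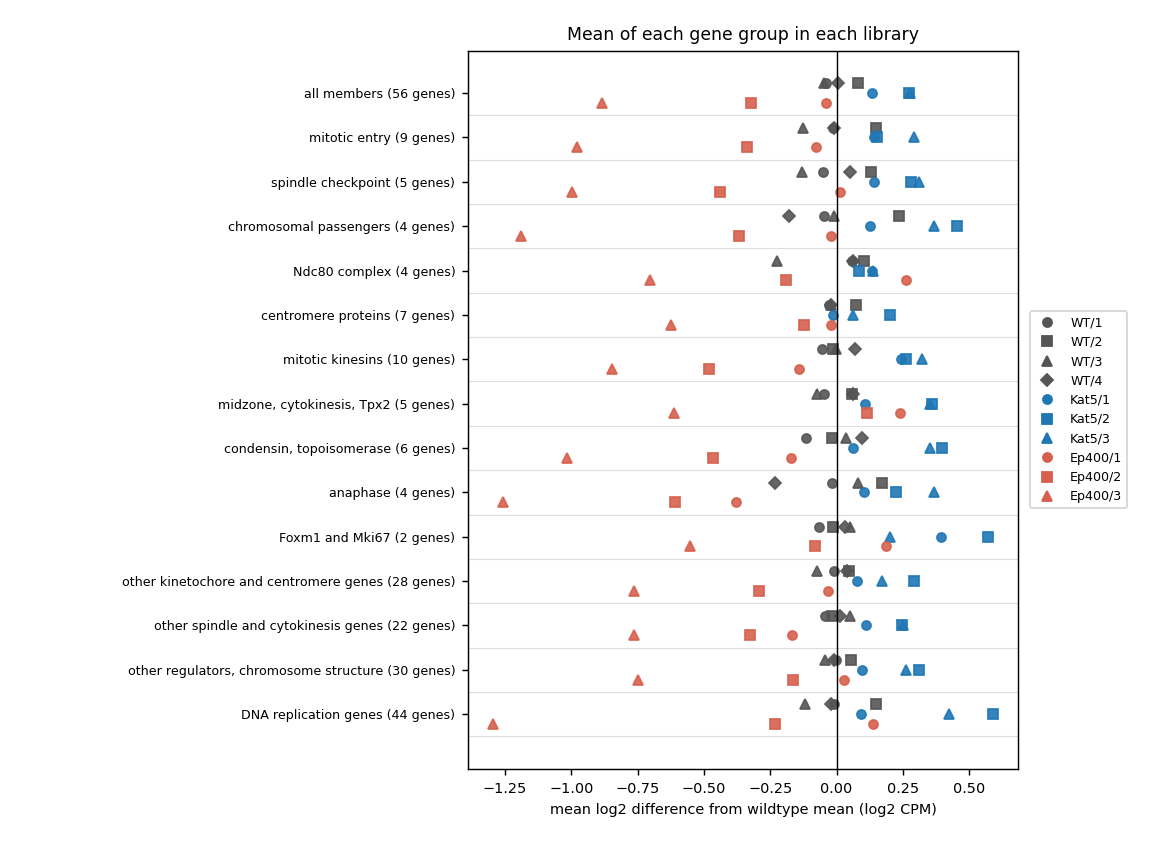
Points give, for each library, the mean log2 CPM difference from the wildtype mean over the genes of a role (rows, number of genes in brackets), grey for wildtype, blue for Kat5 ko and red for Ep400 ko libraries, with symbols for library or clone numbers. Ep400/3 is the lowest library in every row, at −0.88 over all 56 genes and −1.30 over 44 DNA replication genes.

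When Kat5 ko clones were compared with wildtype cells, 0 of the 56 genes passed the same threshold (edgeR, adjusted over 13434 genes), where 0.179% of all genes were called higher and 0.447% lower. DESeq2 called 1, *Kif23*, and limma-voom called 0, again without a share over all genes for these tools. At an unadjusted p under 0.05 there were 11, of which 10 were higher and *Cenpm* was lower, against 10.7% and 11.6% of all genes. The log2-fold change was above 0 for 50 of the 56 genes, with a median of 0.23 against 0.00 over all genes. In 14 genes all Kat5 ko clones lay above all wildtype libraries (9.67% of all genes did) and in 1, *Cdc25b*, all lay below (10.2% of all genes). The 14 included checkpoint genes *Bub1*, *Bub3* and *Ttk*, the kinesins *Kif15*, *Kif23* and *Kif4*, and *Plk1*, *Birc5*, *Cenpe*, *Anln*, *Ncapd2*, *Smc2*, *Cdc20* and *Foxm1*. With the chromosome medians as offsets, these counts were 9 and 2, and the shares of all genes under these offsets are not given here. Without Kat5/1, 9 genes were called, all higher, where 9.83% of all genes were called higher and 9.54% lower. They were *Ccna2*, *Birc5*, *Kif23*, *Anln*, *Ect2*, *Racgap1*, *Ncapg*, *Smc2* and *Espl1*. Without any other single library, 0 were called, where 0.00752% to 0.42% of all genes were called in either direction.

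*Kif23*, the kinesin of the centralspindlin complex, had the smallest p of the list for Kat5. Its levels were 96.2, 112, 110.5 and 97.3 CPM in wildtype libraries, 179, 147 and 150.4 in Kat5 ko clones and 88.4, 59.1 and 60.3 in Ep400 ko clones. The 3 groups did not overlap, and Kat5/1, which was below the other Kat5 ko clones in *Espl1*, *Ncapg* and *Top2a*, was here the highest. The log2-fold change for Kat5 was 0.58 (standard error 0.13, edgeR adjusted p = 0.0748). The genes of chromosome 9, where *Kif23* lies, had medians of 0.106, −0.013 and 0.058 in Kat5/1, Kat5/2 and Kat5/3. For the called or leading genes of the Ep400 comparison not given above, the Kat5 values were 0.17 for *Top2a* (standard error 0.18, edgeR adjusted p = 0.6) and 0.40 for *Anln* (standard error 0.13, edgeR adjusted p = 0.13). They were 0.06 for *Kif14* (standard error 0.15, edgeR adjusted p = 0.852) and 0.26 for *Ncapg* (standard error 0.20, edgeR adjusted p = 0.461). *Kif18a* was at 0.30 (standard error 0.20, edgeR adjusted p = 0.404) and *Prc1* at 0.27 (standard error 0.17, edgeR adjusted p = 0.367). *Cdk1* was at 0.31 (standard error 0.15, edgeR adjusted p = 0.259), *Ccnb1* at 0.21, *Plk1* at 0.38, *Aurka* at 0.40 and *Aurkb* at 0.29. By role, all 10 kinesins, all 6 condensin and topoisomerase genes, all 5 genes of the midzone, cytokinesis and *Tpx2* and all 4 passenger genes were above 0, against 7 of 9 genes of mitotic entry and 3 of 4 anaphase genes, with 0 called in each. Among all genes, 0.179% were called higher for Kat5.

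Genes with values below 0 for Kat5 were *Cenpm*, *Cdc25b*, *Ndc80*, *Ccnb2*, *Pttg1* and *Bub1b*. *Cenpm*, a small subunit of the constitutive centromere network, had 22.2, 22.9, 23.2 and 16.5 CPM in wildtype libraries, 12.3, 17.3 and 15.7 in Kat5 ko clones and 27.5, 22.9 and 14.5 in Ep400 ko clones. WT/4 lay between the Kat5 ko clones, and the log2-fold change was −0.52 (standard error 0.20, edgeR adjusted p = 0.17). *Cdc25b*, a phosphatase that activates Cdk1, had 115, 112, 112 and 112 CPM in wildtype libraries, 109, 101 and 93.5 in Kat5 ko clones and 120.4, 101 and 80.5 in Ep400 ko clones. Its wildtype libraries were close to each other (113 ± 1.62 CPM, SD, n = 4) and all Kat5 ko clones lay below them, and the log2-fold change was −0.19 (standard error 0.12, edgeR adjusted p = 0.383).

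The direct comparison of Ep400 ko with Kat5 ko clones has 3 libraries on each side, all of them clones. Of the 56 genes, 4 were called lower in Ep400 ko clones by edgeR over 13587 genes and 0 higher, where 2.83% of all genes were called lower and 4.22% higher. They were *Kif23* (log2-fold change −1.22, standard error 0.23, edgeR adjusted p = 0.0333), *Cenpe* (−0.95, standard error 0.20, edgeR adjusted p = 0.0388), *Espl1* (−1.71, standard error 0.38, edgeR adjusted p = 0.0453) and *Kif18a* (−1.08, standard error 0.25, edgeR adjusted p = 0.0484). *Ncapg*, with the second lowest log2-fold change of −1.24 (standard error 0.31), had an edgeR adjusted p of 0.0526. DESeq2 called 15 and limma-voom 6, all lower, but the shares of all genes called by these tools are not given here. In the edgeR fit, 28 of the 56 had an unadjusted p under 0.05, all lower. Over all genes, 16% had one on the lower and 16.3% on the higher side. All Ep400 ko clones were below all Kat5 ko clones in 29 genes (18% of all genes) and above in 0 (20.5%). The log2-fold change was below 0 for 55 genes, with a median of −0.64 against 0.01 over all genes. The exception was *Cenpm*, at 0.50 (standard error 0.30, edgeR adjusted p = 0.277), and *Anln* was at −0.01 (standard error 0.31, edgeR adjusted p = 0.987). The calls depended on single clones. Without Kat5/1, 10 of the 56 were called, all lower, where 8.68% of all genes were called lower and 9.32% higher. Without Ep400/1, 1 was called, where 0.639% of all genes were called lower, and 0 were called without Kat5/2, Kat5/3, Ep400/2 or Ep400/3, where 0.0218% to 0.571% of all genes were called in either direction. The median was −0.40 without Ep400/3. Since both comparisons with wildtype share the 4 wildtype libraries, the values of a gene in them are not independent.

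Other genes of mitosis, from lists by known roles, also had their highest mean among the Ep400 ko clones in Ep400/1 and their lowest in Ep400/3, at −0.03, −0.29 and −0.76 in Ep400/1, Ep400/2 and Ep400/3 for kinetochore and centromere genes, −0.17, −0.33 and −0.76 for spindle and cytokinesis genes and 0.03, −0.16 and −0.75 for other regulators. The calls in these lists stand against 5.72% of all genes called lower for Ep400 and 0.179% called higher for Kat5, and 2 of 28 is near that share. Among 28 further kinetochore and centromere genes, 2 were called lower for Ep400 and 0 for Kat5, with medians of −0.31 and 0.19. Among 22 further spindle and cytokinesis genes, 3 were called lower for Ep400 and 0 for Kat5, with medians of −0.38 and 0.14. Among 30 other regulators and chromosome structure genes, 3 were called lower for Ep400 and 1 higher for Kat5, with medians of −0.28 and 0.18. *Haus8*, a subunit of augmin, which branches spindle microtubules, was lower in Ep400 ko clones (log2-fold change −0.89, standard error 0.18, edgeR adjusted p = 0.0155), as was the kinetochore linker *Cenpt* (−0.89, standard error 0.19, edgeR adjusted p = 0.0195). *Fbxo5*, which encodes the inhibitor Emi1 of the anaphase-promoting complex, was higher in Kat5 ko clones (1.07, standard error 0.13, edgeR adjusted p = 0.0207), with mean levels of 92.3 CPM against 43.0 in wildtype cells. Cyclin *Ccne2*, of DNA replication, had the next smallest p for Kat5, at 1.33 (standard error 0.26, edgeR adjusted p = 0.0648). In Ep400 ko against Kat5 ko clones, the smallest p values were those of *Mybl2*, which encodes B-Myb (−2.21, standard error 0.47, edgeR adjusted p = 0.0409), and of *Bora*, an activator of Plk1 (−1.17, standard error 0.26, edgeR adjusted p = 0.0437).

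Genes of DNA replication, which belong to the preceding S phase, showed the same order of the Ep400 ko clones. Over 44 such genes the mean log2 difference was 0.09 in Kat5/1, 0.59 in Kat5/2 and 0.42 in Kat5/3, and 0.14 in Ep400/1, −0.23 in Ep400/2 and −1.30 in Ep400/3, against −0.12 to 0.15 in wildtype libraries. For Ep400, 38 of 44 were below 0 (median −0.42) with 0 called by edgeR and 5 lower at an unadjusted p under 0.05, which is not above the 14.2% of all genes. For Kat5, 39 of 44 were above 0 (median 0.31) with 0 called and 17 higher at an unadjusted p under 0.05, against 10.7% of all genes. The values of mitotic and replication genes come from the same libraries, and whether 1 list differs from the other was not tested.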

How the data were processed

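RNA of 4 wildtype samples, 3 Kat5 ko and 3 Ep400 ko clones of O9-1 cells was sequenced as poly-A libraries (TruSeq Stranded mRNA, paired reads, a NovaSeq instrument) and mapped to mm10. The submitters' processing notes name bcl2fastq 2.20, STAR 2.7.3, DESeq2 1.36.0 and R 4.2.1. The counting program, its strand setting and the annotation are not given in the sources used here. The deposited values used are raw counts of reads per gene, made by the authors. The deposited normalized tables were not used.

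The members and lists were chosen with earlier results of these data known. Genes kept by filterByExpr were normalized by TMM and tested with edgeR 4.0.16 (quasi-likelihood test, robust option, R 4.3.3) in each comparison, with Benjamini-Hochberg adjustment over all genes tested and a threshold of 0.05. The procedure was tested on simulated data. The standard error is the absolute log2-fold change divided by the square root of F. Levels in CPM were scaled by TMM over all 10 libraries, and log2 CPM had a prior count of 2. Groups do not overlap where every library of one lies outside the range of the other. Named genes were 14 anchors (*Mki67*, *Foxm1*, *Cdk1*, *Ccnb1*, *Plk1*, *Aurka*, *Aurkb*, *Bub1b*, *Ndc80*, *Cenpa*, *Kif11*, *Prc1*, *Top2a*, *Espl1*), in each comparison the genes with adjusted p of at most 0.05 (the 6 smallest p where more), the 2 highest and the 2 lowest log2-fold changes, and the 2 further genes of the pathway lists with the smallest p. Genes that complete a count of called or not overlapping genes, or give the range of a role, were named after their values were seen. Coordinates and exon lengths are those of GENCODE M21 (GRCm38, the build mm10), promoters those of RefSeq.

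No library was a duplicate of another, since counts within groups deviated beyond sampling (a chi-square of 26.8 to 259.5 for each degree of freedom). Labels name wildtype samples as biological replicates and the others as clones. Alternatives were DESeq2 1.42.0, limma-voom (limma 3.58.1), other normalizations and filters, 1 fit of all libraries, a replicate block, chromosome offsets, libraries left out in turn and, added after values were seen, edgeR without the robust option. Precision of single values is limited by 1 library per clone.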

Additional observations from a re-analysis of the deposited data

Results flagged for a closer look

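In 5 of 37 values tested, 1 wildtype library stood apart from the other 3 by Dixon's criterion for groups of 4, which chance meets in about 1 in 20 values. WT/3 had the highest level of *Espl1*, at 116 CPM, and the lowest mean over the Ndc80 complex, at −0.225 on the log2 scale. WT/4 had the lowest level of *Cenpm*, at 16.5 CPM. WT/1 had the highest level of *Cdc25b*, at 115 CPM, and WT/2 the highest mean over the centromere proteins, at 0.074 on the log2 scale. The groups of 3 clones were too small for this test.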

How the results depend on the processing

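Of the alternative values of single named genes, 573 kept direction and side of the threshold, 53 lost and 12 gained a call and 27 changed sign. The median log2-fold change of the 56 genes kept its sign throughout (0.18 to 0.30 for Kat5, −0.58 to −0.20 for Ep400, −0.86 to −0.40 for Ep400 against Kat5). For the changes given here the cause was not tested. With DESeq2, the calls were 1 higher for Kat5, 11 lower for Ep400 and 15 lower for Ep400 against Kat5. In the last comparison they were 10 without a filter on low counts, 22 with 1 fit of all libraries and 8 with chromosome offsets. The shares of all genes called under these settings and with DESeq2 are not given here. These counts therefore do not show whether the list or all genes gained calls. With library sizes alone, and likewise with chromosome offsets, 9 genes were without overlap higher and 2 lower for Kat5. The shares of all genes without overlap under these scalings are not given here either.

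With libraries left out in turn, calls ranged from 0 to 9 higher for Kat5, from 1 to 16 lower and 0 to 1 higher for Ep400 and from 0 to 10 lower for Ep400 against Kat5. The share of all genes called in either direction ranged with them, from 0.00752% to 19.4%, 5.85% to 14.3% and 0.0218% to 18% in these comparisons. Leaving out a library also raises the share of all genes without overlap. Genes without overlap ranged from 14 to 30 higher and 1 to 2 lower for Kat5, 17 to 33 lower and 0 to 2 higher for Ep400, and 29 to 41 lower and 0 to 2 higher for Ep400 against Kat5. The 30 (without Kat5/1), 33 and 41 (both without Ep400/1) stand against 24.6%, 20.6% and 23.9% of all genes.

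With the replicate number as a block, 0 of the 56 genes were called in the Ep400 comparisons with wildtype and with Kat5. The share of all genes called with this block is not given here. *Bub1b* (0.002) and *Cenpa* (−0.066) changed sign for Kat5. The numbers only name the samples, and same-numbered libraries deviated together with correlations of −0.096 to 0.223.

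By clone, library sizes alone gave 12 genes below the wildtype range in Kat5/2 and means of 0.148 in Kat5/2, 0.173 in Kat5/3 and −0.774 in Ep400/3. With chromosome medians subtracted, 16 genes were above the range in Kat5/1, 3 below in Kat5/2, 8 above in Ep400/1 and 5 above in Ep400/2, with means of −0.099 in Ep400/1 and −0.96 in Ep400/3. The shares of all genes outside the range under these scalings are not given here.

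Changes of sign concerned values near 0. For Kat5, *Bub1b* was at 0.003 with DESeq2, 0.001 with its size factors, 0.019 in 1 fit of all libraries and 0.008 to 0.031 without WT/2, WT/4, Kat5/1 or Kat5/2 (0.031, 0.014, 0.008 and 0.008). *Cenpa* was at −0.045 with library sizes alone, −0.058 with chromosome offsets and from −0.058 to 0.126 (−0.013, −0.031 and −0.016 among them) with single libraries left out, and *Kif11* at −0.014 with library sizes alone and from −0.031 to 0.117 with single libraries left out. For Ep400, libraries left out in turn gave −0.097 to 0.279 for *Prc1* (−0.023 and −0.003 among them), −0.327 to 0.17 for *Foxm1* and −0.234 to 0.063 for *Kif11*, the highest values being those without Ep400/3. For Ep400 against Kat5, *Anln* was at 0.001 with DESeq2 size factors, 0.109 with library sizes alone, 0.011 in 1 fit and from −0.242 to 0.262 (0.04 among them) with single libraries left out.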
